A study of Tupaia belangeri chinensis with 12 samples.

Results

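The 1159 loci described here are antisense transcript loci of the fetal tree shrew cortex. They are entries of the deposited gene tables whose identifier joins the name of a gene to -AS- and a number, as in GLI3-AS-2, and whose FPKM was at least 1 in at least 3 of 12 libraries. FPKM counts sequenced fragments per length of transcript, relative to the fragments mapped in the library. The tables held 22432 such antisense loci, so 5.17% were kept, and 10884 (48.52%) were listed at 0 in every library. The members were chosen by their FPKM values, so their level is a description and not a result. The gene named before -AS- is called the sense partner below. Whether the libraries or the counting kept the strand of a read is not documented in the sources used here. Without strand, reads from an antisense locus and from its partner cannot be told apart where both overlap, and every value below carries that limit.

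The tissue was fetal cortex of the Chinese tree shrew (Tupaia belangeri chinensis), a small mammal related to primates, at embryonic day 37 by the labels (the names of the deposited tables carry another day). Laser capture on stained cryosections of 30 µm separated the ventricular zone (VZ), the inner and the outer subventricular zone (ISVZ and OSVZ) and the cortical plate (CP), with 3 libraries per layer, from animals with no stated treatment or genotype. Libraries were made from poly(A) RNA. No label says that the 3 libraries of 1 layer are from different animals. The p-values below therefore speak only of the spread among these samples, part of which may be technical.

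Antisense transcripts are made from the strand opposite to a gene. Some overlap their partner in a head-to-head or tail-to-tail arrangement, some lie wholly inside it, and many are noncoding. Known examples act on the partner in cis through chromatin, transcription or the RNA itself, and others have no known effect. In the developing cortex, progenitors divide in the VZ and the subventricular zones, and the neurons they produce settle in the CP.

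Each library listed between 846 and 1010 antisense loci at an FPKM of at least 1, and the 1159 members held 4.44% to 5.32% of a library's summed FPKM. All levels below are FPKM after 1 scaling factor per library (0.947 to 1.06). Marker genes followed the layer labels. SOX2, of progenitors, was at 156 to 158 in VZ and at 3.92 to 6.68 in CP, and NEUROD6, of cortical excitatory neurons, was at 26.5 to 142 in VZ and at 636 to 694 in CP. Some captures held other cells. TTR, of choroid plexus, was at 529, 2514 and 33.8 in the VZ libraries and at most 48.4 elsewhere. DLX1, of interneurons and their precursors, was at 83.2 to 141 in VZ and at 44.7, 175 and 155 in ISVZ, against 6.51 to 46.1 in OSVZ and CP. LUM, of meninges, was at 12.9 to 17 in CP and at most 4.51 elsewhere. C1QB, of microglia, was at 3.16 to 8.22 in the germinal layers and at 0.31 to 0.45 in CP. The part of these cells in the differences below was not tested except where a value is given.

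Most members lay where their names place them. Of the 1159, 930 (80.2%) overlapped the named partner, 597 of them wholly inside it, 314 in part and 19 spanning it. Another 34 lay apart from the partner on the same chromosome. The partner was on another chromosome for 112 loci, and at 105 of these the tables list a further annotated copy of the partner, named with the suffix li and a number. For 83 loci no gene carried the partner's symbol. In all, 598 members also overlapped a named gene other than the partner, and 5 overlapped no named gene. Reads may be split among near-identical copies, so the values of loci at such copies are uncertain. The members were spread over 31 chromosomes, 54 partner names had at least 2 members, and UBE3A, NSA2, ANK2 and L1RE1 had 3 each.

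Members were mostly low. Their median level over the 12 libraries was 2.06, against 6.61 for annotated genes that met the same threshold and 1.86 for intergenic noncoding loci. Of the members, 565 averaged under 2, 185 averaged at least 10 and 18 averaged at least 100. At least 1 FPKM was reached in all 12 libraries by 468 members and in every layer by 762. Near the threshold, the third highest FPKM was 1.001 for RCBTB1-AS-2, 1.004 for PACSIN1-AS-1 and 1.004 for UBE2B-AS-1 just inside, and 0.9996 for GOSR1-AS-3, 0.9981 for LINS1-AS-1 and 0.998 for DLST-AS-1 just outside.

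In a single layer only, 1 FPKM was reached by 11 members, which so entered through that layer alone (6 in CP, 3 in VZ, 2 in ISVZ and 0 in OSVZ). The CP loci were CADM2-AS-2, FBXW9-AS-1, NTRK2-AS-8, SVBP-AS-1, TSHZ3-AS-1 and ZNF697-AS-1, the ISVZ loci DNA2-AS-1 and HNRNPA1-AS-2, and the VZ loci ITGB5-AS-3, MAGI1-AS-3 and WHSC1-AS-1. The rule favoured a difference for them, so their values are a description, and they are marked where a count below holds them.

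Values at or near 0 were common among antisense loci. Of the 1158 members tested (1 had a failed estimate), 133 (11.5%) had a value above 0 but under 0.001 in at least 1 library, against 0.855% of annotated genes and 7.55% of intergenic noncoding loci. A listed 0 in at least 1 library was found for 99 members (8.55%). A locus at or near 0 is given here by its listed level, with no linear fold, and its log2 difference depends on the pseudocount of 1 added to each value.

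The 10 loci of highest level were mostly at the place of abundant coding genes or their copies. ZC3H10-AS-1 (chromosome 7, 44110316 to 44189864) stood highest, at 1404 to 3404 in the 12 libraries, while ZC3H10, a zinc finger gene, was at 5.28 to 14.8. Its span also holds SMARCC2, ESYT1 and a copy of the myosin light chain gene MYL6, and MYL6li4 was at 73.1 to 142. EEF1AS-AS-3 (526 to 845) and EEF1A1-AS-2 (167 to 291) lay at copies of translation elongation factor genes, and SMIM14-AS-3 (235 to 401) overlapped RPL9li30, a ribosomal protein copy at 44.1 to 74.1. None of these 3 passed the test over layers. MT-ND1-AS-1 (45.6 to 440) overlapped an entry named as a copy of a mitochondrial gene, and PCBP2-AS-3 lay at a copy of PCBP2, which encodes an RNA-binding protein.

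The remaining 3 of the 10 lay at their own partners. MAP2-AS-3 was inside MAP2, which encodes a dendritic microtubule protein, at 143 to 197 in VZ and 234 to 350 in CP, and MAP2 itself was at 119 to 225 over all libraries. The locus was higher in CP by 0.47 ± 0.15 (log2 difference ± SE, adjusted p = 0.0214), a call that was lost without CP 3 (0.29, adjusted p = 0.127). GNB1-AS-1, at a G protein beta subunit gene, was at 154 to 205 in the germinal layers and 294 to 327 in CP, with no overlap (0.74 ± 0.10, adjusted p = 9.47e-05). MARCKS-AS-1 (94 to 195) lay at the gene of a membrane-bound actin regulator of growing neurites and did not pass (-0.42, adjusted p = 0.0563).

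Across the layers, 405 of the 1158 members tested (35%) passed the moderated F test of limma, against 51.7% of all 14106 genes tested, with adjusted p-values under 0.05 by the Benjamini-Hochberg method. Of the 405, 168 were highest in CP, 157 in VZ, 56 in ISVZ and 24 in OSVZ. Layer means went up from VZ through ISVZ and OSVZ to CP at 89 of them and down through the same order at 106. These are 41.5%, 38.8%, 13.8%, 5.93%, 22% and 26.2% of the 405, beside 40.4%, 40.4%, 11%, 8.21%, 23.5% and 30% of the 7299 genes of any kind that passed. No difference between these shares was tested. In bulk tissue, fewer cells of a type and less RNA per cell cannot be told apart.

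The share that passed moved with level. Of members averaging under 2, 27.1% passed, against 52.6% of those averaging 50 or more. Annotated genes passed at 49.5% and 55.5% in the same ranges, and intergenic noncoding loci at 34.9% and 43.8%. The median standard error of the CP difference was 0.198 for members, 0.129 for annotated genes and 0.218 for intergenic noncoding loci. Among the 942 members with no 0 and no value under 0.001, 342 passed (36.3%). Of members at 1 FPKM in all libraries, 184 of 467 tested passed (39.4%).

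**Figure D1:**
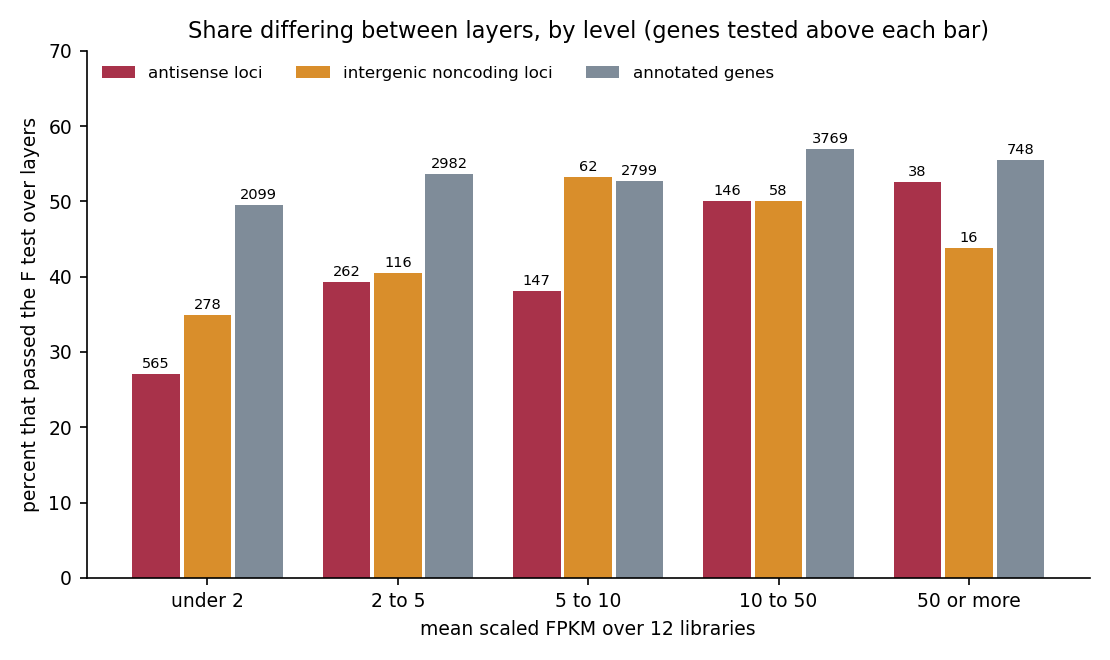
Percent of loci that passed the F test over the 4 layers (y axis, from 0) by mean scaled FPKM over 12 libraries (x axis), for antisense loci, intergenic noncoding loci and annotated genes, with the number tested above each bar. The antisense bars run from 27.1% at levels under 2 to 52.6% at 50 or more, and the annotated bars from 49.5% to 55.5%.

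The contrast with most calls set CP, the layer of settled neurons, against the average of the other 3 layers, called germinal layers here. In CP, 210 members (18.1%) were higher and 239 (20.6%) lower, against 24% and 28.7% of all genes tested. Of the 239 lower, 124 had no CP library at 1 FPKM and so became members through the germinal layers alone, and 6 of the 210 higher became members through CP alone. The rule favoured these differences, and the counts are no support for a trait of antisense loci. The median log2 difference was -0.01 over members and -0.05 over all genes. Under quantile normalisation 269 were higher and 155 lower.

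Among the loci higher in CP was CADM2-AS-2 (chromosome 1, 53144369 to 53149245), within CADM2, a synaptic adhesion gene. It was at 7.04, 6.89 and 7.4 in CP and at most 0.000156 in the other 9 libraries. The log2 difference was 3.02 ± 0.10, a description with no test, since the locus met the threshold through CP alone. CADM2 was also higher in CP, by 1.53 ± 0.18, from 3.24 to 9.39 in the germinal layers to 14.5 to 26.1. The pair difference, the log2 value of the locus minus that of its partner, was 1.49 ± 0.18 and is a description too.

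MAP4-AS-2 (chromosome 24, 22348192 to 22353634) lies inside MAP4, which encodes a microtubule-associated protein. Its levels were 7.58, 5.78 and 7.78 in VZ, 13.9, 16 and 10.3 in ISVZ, 28.2, 25.6 and 35.9 in OSVZ, and 62, 71.5 and 61.5 in CP. No 2 layers overlapped, and each was higher than the layer below it. The CP difference was 2.12 ± 0.14 (adjusted p = 4.89e-07). MAP4 was at 25 to 40 in all 12 libraries. It was higher in OSVZ than in VZ by 0.47, beside 1.94 for the locus, and did not pass in CP (0.06 ± 0.11, adjusted p = 0.654). The pair difference in CP was 2.06 ± 0.16 (adjusted p = 1.43e-06).

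AKAP2-AS-2 (chromosome 2, 108641470 to 108644151) showed a similar contrast inside AKAP2, a gene of a protein kinase A anchor. It was at 0.137 to 0.426 in VZ and ISVZ, at 2.74, 1.39 and 8.53 in OSVZ, and at 9.51, 11.2 and 10.6 in CP. All OSVZ and CP libraries were above all VZ and ISVZ libraries (CP difference 2.56 ± 0.30, adjusted p = 3.35e-05). AKAP2 was at 2.85 to 4.86 throughout, with a CP difference of -0.16, and the pair difference was 2.72 ± 0.27 (adjusted p = 8.72e-06). AKAP2-AS-2 became a member through OSVZ and CP alone. The rule thus favoured its difference from VZ and ISVZ, which enters the CP and pair differences.

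Of the loci higher in CP, SRI-AS-2 had the largest difference, 3.37 ± 0.36 (adjusted p = 1.67e-05). It was at 12.6, 13.5 and 17.2 in CP, at 1.47, 0.182 and 4.46 in OSVZ, and at most 0.822 in VZ and ISVZ. Its partner SRI, which encodes the calcium-binding protein sorcin, was at 16.4 to 25.3 with a CP difference of -0.08, and the pair difference was 3.44 ± 0.38. The locus, on chromosome 6 from 93244071 to 93285409, has 6.9% of its span in SRI and also overlaps ADAM22 and STEAP4.

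At other loci the partner was higher in CP as well. NDRG1-AS-1, at a gene known for its induction by hypoxia, was at 0.952 to 9.02 in the germinal layers and at 20.5, 26.5 and 24.2 in CP (2.70 ± 0.22, adjusted p = 2.61e-06), and NDRG1 differed by 3.07. NTM-AS-3, at the adhesion gene neurotrimin, differed by 2.29 (NTM 2.18). MPPED1-AS-1 differed by 2.17 (MPPED1 2.46), with r = 0.99 between locus and partner over the 12 libraries. ADD2-AS-2, at the gene of beta adducin in the membrane skeleton, differed by 2.15 (ADD2 1.21), and LIMCH1-AS-3, at an actin and myosin regulator, by 2.56 (LIMCH1 1.06). The correlation is a description, since locus and partner share libraries and may share reads.

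RPL7A-AS-1 is named for a ribosomal protein gene on another chromosome. Its span on chromosome 11 (32532718 to 32702481) overlaps CDH6, which encodes a cadherin. The locus was at 0.104 to 3 in the germinal layers and at 5.87, 5.64 and 8.8 in CP (2.01 ± 0.32, adjusted p = 3.11e-04). CDH6 was at 9.01 to 11.8 in CP and 1.12 to 4.21 elsewhere, while the copy RPL7Ali2 at the locus was listed at 0 in every library.

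GLI3-AS-2 (chromosome 6, 24645317 to 24653991) was lower in CP and overlaps GLI3, a transcription factor of hedgehog signalling that patterns the cortex. It was at 20.4, 25 and 32.4 in VZ, 11, 8.13 and 11 in ISVZ, 3.23, 5.21 and 6 in OSVZ, and 6.81e-05, 0.243 and 0.0437 in CP. The libraries of the 4 layers did not overlap, in the order VZ, ISVZ, OSVZ and CP. The CP difference was -3.44 ± 0.17, beside -2.78 ± 0.21 for GLI3, and the pair difference was -0.66. GLI3-AS-2 became a member through the germinal layers alone, so its CP and pair differences are descriptions with no test.

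SLC1A3-AS-4, at the glutamate transporter gene SLC1A3 of radial glia, was at 94.1, 87.7 and 131 in VZ, 18.3 to 41.4 in ISVZ and OSVZ and 4.44 to 7.65 in CP. VZ stood above all other libraries and CP below them, with ISVZ and OSVZ mixed. The locus differed by -2.53 ± 0.22, beside -3.16 for SLC1A3.

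ELP4-AS-3 lies inside ELP4, which encodes a subunit of the Elongator complex, on chromosome 18 (18359393 to 18364067), next to PAX6, a transcription factor of cortical progenitors. The locus was at 15.3, 11.7 and 16.1 in VZ, 1.76 to 5.87 in ISVZ and OSVZ, and listed at 0 in the 3 CP libraries (-2.81 ± 0.24). ELP4 differed by -1.03 ± 0.20. The pair difference was -1.78 ± 0.33. ELP4-AS-3 became a member through the germinal layers alone, so its CP and pair differences are descriptions with no test. PAX6, whose nearer end is 19768 bases away, was at 12.7 to 36 in the germinal layers and at 0.19 to 0.76 in CP, with r = 0.93 to ELP4-AS-3 over the 12 libraries.

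**Figure D2:**
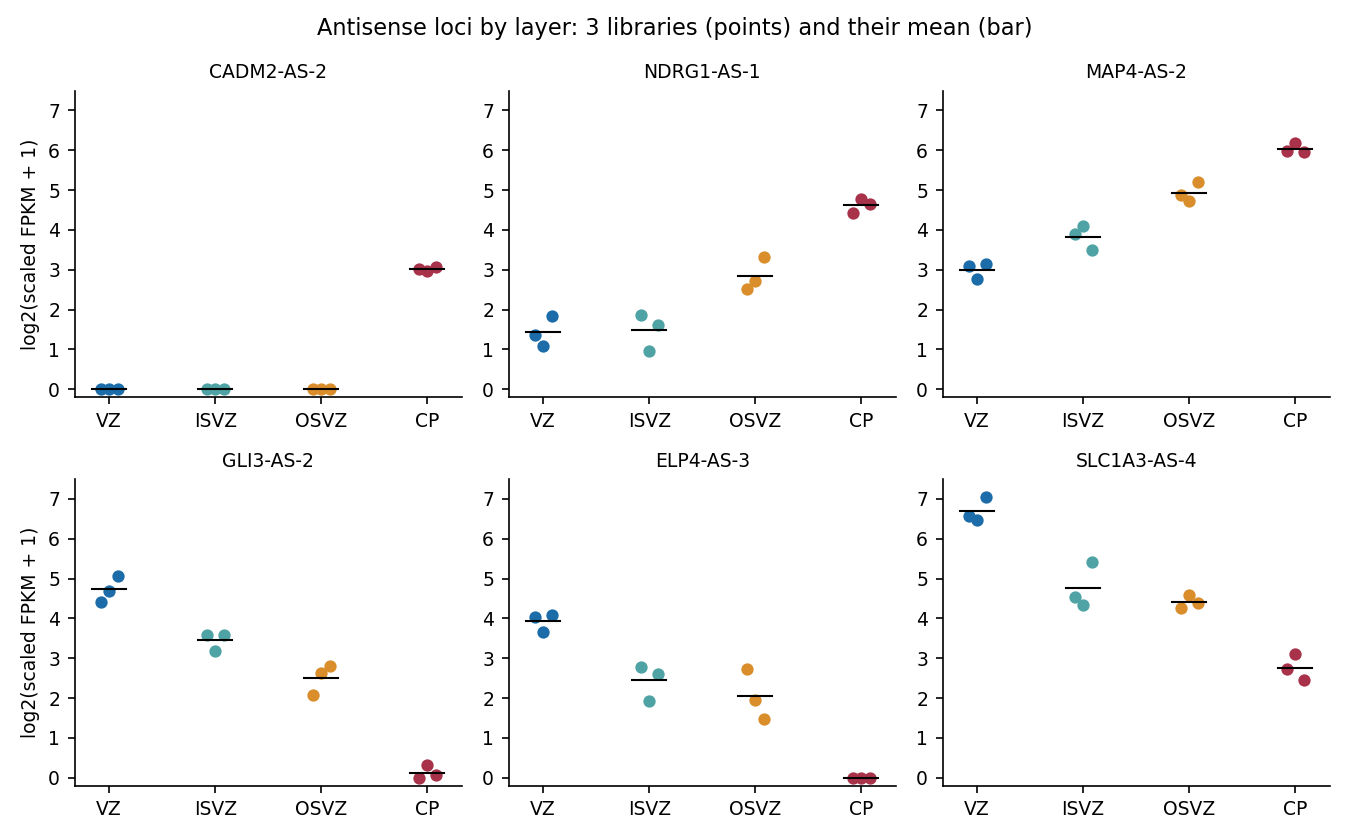
Level of 6 antisense loci as log2(scaled FPKM + 1) in the 3 libraries of each layer (points) with their mean (bar). The layers of MAP4-AS-2 and GLI3-AS-2 do not overlap and run in opposite orders, CADM2-AS-2 is above 0.000156 only in CP, and ELP4-AS-3 is at 0 in CP.

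CCNB1-AS-1, also lower in CP, lies at CCNB1li1, a copy of the mitotic cyclin gene CCNB1, and was at 4.71 to 16.2 in the germinal layers and 0.117 to 1 in CP (-2.90 ± 0.22), while CCNB1li1 was at 13.9 to 43 and 0.35 to 0.66. TGIF2-AS-1, inside a homeobox repressor gene, was at 4.37 to 11.3 and 0.146 to 0.389 (-2.67 ± 0.15), and TGIF2 differed by -1.86. CCNB1-AS-1 and TGIF2-AS-1 became members through the germinal layers alone, so their CP differences are descriptions. C6ORF167-AS-2, with the longest span (1222672 bases), overlaps MMS22L, a gene of replication fork repair, and differed by -2.48. S100A16-AS-2 lies at S100A13, of a calcium-binding protein family, and was at 53 to 79.7 in VZ and 1.61 to 3.57 in CP (-2.72 ± 0.21).

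CDC42-AS-1 is named for a small GTPase gene of cell polarity and spans a copy, CDC42li2, on chromosome 13 (88765105 to 88885449). It was at 28.3, 21.1 and 20.9 in VZ, 1.49, 12.4 and 14.5 in ISVZ, and at most 3.21e-04 in OSVZ and CP (CP difference -2.53 ± 0.43). VZ was above ISVZ, and both were above OSVZ and CP. CDC42li2 went the other way, at 62.7 to 75.7 in the germinal layers and 118 to 129 in CP. The named partner CDC42 was listed at 0 in all libraries. CDC42-AS-1 became a member through VZ and ISVZ alone, so its differences against OSVZ and CP are descriptions.

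DLX6A-AS-1 overlaps DLX6, a homeobox gene of interneuron precursors, and lies 7630 bases from DLX5. It was at 181, 164 and 71.1 in VZ, 34.6, 278 and 202 in ISVZ, 18.7, 38 and 17 in OSVZ, and 15.2, 15.2 and 4.28 in CP (-2.71 ± 0.59, adjusted p = 2.45e-03). Levels in ISVZ 2 and 3 were above those in VZ, and ISVZ 1 was within the OSVZ range. DLX1, given above, had the same order of ISVZ libraries (44.7, 175 and 155), and DLX5 had r = 0.95 with the locus. How much of the difference came with the number of such cells in a capture was not tested.

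Between OSVZ and VZ, 67 members (5.79%) were higher in OSVZ and 125 (10.8%) lower, against 11.7% and 16.1% of all genes. In this and the later contrasts between single layers, the rule favoured a difference for members with no library at 1 FPKM in the lower layer. The number of such members was not counted, so these counts too are no support for a trait of antisense loci. MT-ND1-AS-1 was higher in OSVZ by 2.58 ± 0.37, and PLXNA4-AS-9, at a semaphorin receptor gene, by 1.99 ± 0.25, from 9.18 to 19.3 in VZ to 51.8 to 64.1 in OSVZ. MAP4-AS-2 and AKAP2-AS-2 differed by 1.94 and 1.86. AKAP2-AS-2 became a member through OSVZ and CP alone, so the rule favoured its rise, which is a description.

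Lower in OSVZ than in VZ were CDC42-AS-1 (-4.60, a member through VZ and ISVZ alone), S100A16-AS-2 (-2.67) and the 2 loci that follow. OTX2-AS-1 overlaps OTX2, a head homeobox gene that the choroid plexus keeps on. It was at 3.62, 29.2 and 7.09 in VZ, against at most 2.29 in any library of the other layers, and highest in the library with the most TTR (2514). It was lower in OSVZ by 2.95 on the log2 scale (-2.95 ± 0.62, adjusted p = 4.81e-03), and OTX2 had r = 0.99 with it. GPR177-AS-4 overlaps WLS, which exports Wnt proteins, and was at 10.5, 18.6 and 14.2 in VZ and at most 2.9 in OSVZ (-3.01 ± 0.77, adjusted p = 0.0135). WLS was likewise highest in VZ 2, at 52. The GPR177-AS-4 call was lost without VZ 2 (adjusted p = 0.0512) and without OSVZ 1 (0.053). Without both VZ 1 and VZ 2, the libraries of highest TTR, 58 members in all passed, and the calls of AKAP2-AS-2 and GPR177-AS-4 were lost.

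Neighbouring germinal layers differed at few members. From VZ to ISVZ, 6 members (0.518%) were higher and 43 (3.71%) lower, against 1.54% and 7.15% of all genes, and the total of 49 fell to 19 without VZ 2, 29 without VZ 3 and 27 without ISVZ 2. The 6 included NSA2-AS-9 (0.97 ± 0.26), PACSIN2-AS-6 (0.95 ± 0.24) and MAP4-AS-2 (0.83 ± 0.17), and the first 2 lie at copies of their partners. Each of the 3 lost its call without VZ 2 or ISVZ 2 (adjusted p = 0.0605 to 0.161). NSA2-AS-9 also lost it without VZ 1 (adjusted p = 0.105), VZ 3 (0.0827), ISVZ 1 (0.0681) or ISVZ 3 (0.0802), with no filter (0.124) and in further alternatives. PACSIN2-AS-6 also lost it without VZ 1 (adjusted p = 0.0754), ISVZ 1 (0.119) or ISVZ 3 (0.0516) and with no filter (0.108). Among those lower in ISVZ were OTX2-AS-1 (-2.61, not passed without VZ 2, VZ 3, ISVZ 1 or ISVZ 2, adjusted p = 0.0561 to 0.0954, with a pseudocount of 0.1, 0.0615, or with no filter, 0.0914) and FGFR2-AS-4 (-2.48). FGFR2-AS-4 lies inside the FGF receptor gene FGFR2 and was at 5.91, 3.99 and 3.98 in VZ, listed at 0 in all ISVZ and OSVZ libraries, and at 4.34, 0 and 0 in CP. The rule thus favoured its fall from VZ to ISVZ, which is a description. Its call was also lost with no filter (adjusted p = 0.0519).

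From ISVZ to OSVZ, 4 members were higher and 1 lower, against 0.482% and 0.121% of all genes, and 136 had an unadjusted p under 0.05. Those higher were CHSY3-AS-1 (1.22), MAP4-AS-2 (1.10), CD47-AS-2 (1.02) and, named after its values were seen, SLC8A1-AS-3 (0.92, adjusted p = 0.0392). The one lower was CDC42-AS-1 (-3.00), a member through VZ and ISVZ alone. The count was 0 without ISVZ 2, ISVZ 3, OSVZ 1 or OSVZ 3, 13 without OSVZ 2 and 30 without ISVZ 1, so it rested on single libraries.

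From OSVZ to CP, 118 members (10.2%) were higher and 107 (9.24%) lower, against 13.6% and 17.4% of all genes, and with quantile normalisation 152 and 58. LIMCH1-AS-3 (3.37), CADM2-AS-2 (3.02, a member through CP alone), SRI-AS-2 (2.61), RPL7A-AS-1 (2.18) and TMEM167B-AS-1 (1.98) had the largest rises among loci with no overlap between the layers. GLI3-AS-2 (-2.38), CCNB1-AS-1 (-2.38), TGIF2-AS-1 (-2.22), C6ORF167-AS-2 (-2.68) and RPL9-AS-2 (-2.07) had the largest falls. GLI3-AS-2, CCNB1-AS-1 and TGIF2-AS-1 became members through the germinal layers alone.

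Loci were then set beside their partners. For 860 of 929 tested members that overlap their partner, the partner was tested too. The locus had the higher mean level in 181 pairs (21%), and the median ratio of locus to partner was 0.325. In CP against germinal layers, locus and partner both passed in 249 pairs, of which 114 were higher for both, 117 lower for both and 18 opposite. Only the locus passed in 85 pairs, only the partner in 239, and neither in 287. Across the 860 pairs the 2 log2 differences had r = 0.64, and for OSVZ minus VZ and CP minus OSVZ r was 0.61 and 0.52. These are descriptions, since both values of a pair come from the same libraries and, without strand, may come from the same reads.

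The same correlation of CP differences was taken by what lay at the locus, with no test between sets. Where no other named gene overlapped the locus, r was 0.69 over 533 pairs, and where one did, 0.55 over 327. In 238 of the latter that gene was tested too, and r was 0.45 with the partner and 0.27 with that gene. For members apart from a partner on the same chromosome r was 0.25 over 16 pairs, and for those with a tested partner on another chromosome 0.51 over 27. At 72 loci with a tested copy of such a partner, r with that copy was 0.52. At 80 loci with no gene of the partner's symbol, r with another tested gene at the locus was 0.72. Within single pairs, the median r over 12 libraries was 0.39, with 171 pairs at 0.8 or more and 204 below 0.

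**Figure D3:**
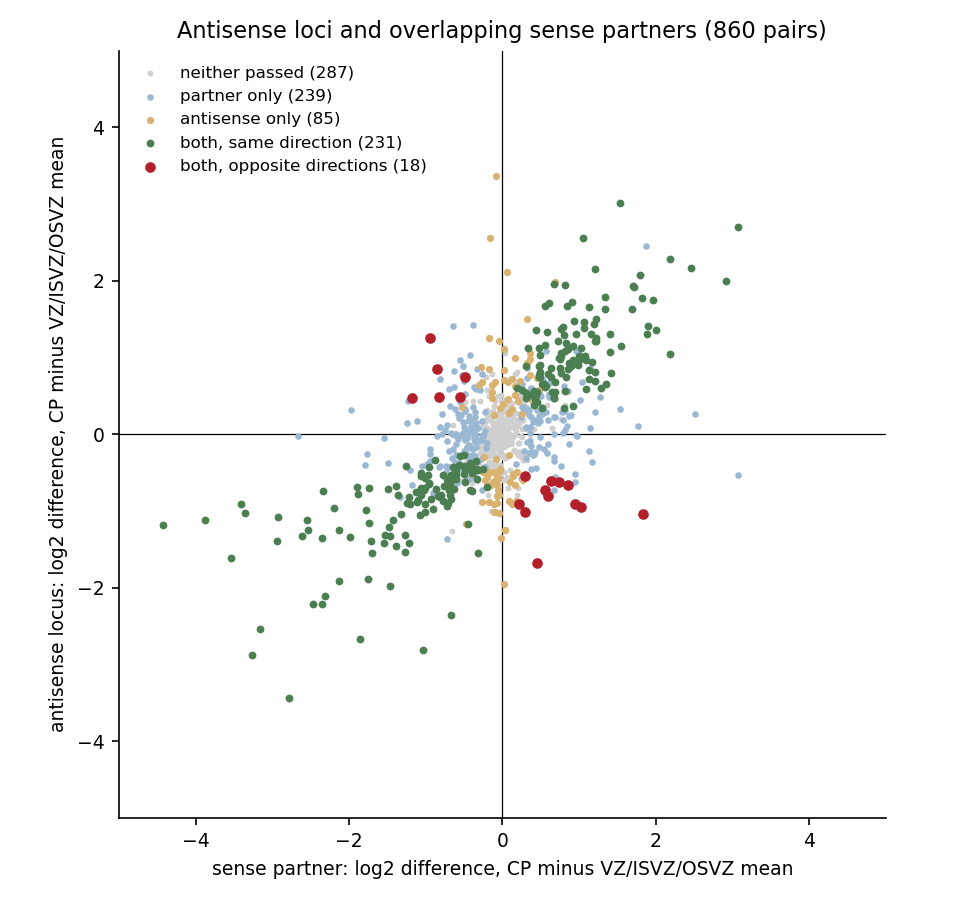
Log2 difference between CP and the germinal layers for the sense partner (x axis) and the antisense locus (y axis) in 860 overlapping pairs, coloured by which of them passed. Pairs in which both passed lie mostly in the same-direction quadrants (231), and 18 lie in the opposite ones.

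Because separate calls do not test a difference, the pair difference was tested over all 14957 antisense and sense pairs with a side at 1 FPKM. It passed over layers for 293 of 1075 member pairs (27.3%), against 54.1% of all pairs. In CP it was higher for 172 (16%) and lower for 143 (13.3%), against 26.4% and 27.7%, and with quantile normalisation for 203 and 101. The pairs outside the members had an antisense side below the threshold, where the difference mostly mirrors the partner. Annotated genes alone passed over layers at 53.8%. The shares of all pairs are thus no like measure for member pairs. The pair difference passed in 27 of the 114 pairs higher for both, 37 of the 117 lower for both, and 56 of the 85 in which only the locus passed. It passed in 86 of the 239 in which only the partner passed, and in 18 of the 287 in which neither did.

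The pair differences of largest size were of several kinds. CCNB2-AS-2 overlaps the mitotic cyclin gene CCNB2 and was at 1.55 to 6.11 in the germinal layers and 0.333 to 1.32 in CP (-1.19), while CCNB2 was at 16.3 to 50.8 in the germinal layers and 0.299 to 0.853 in CP (-4.43). The locus thus fell less on this scale, with a pair difference of 3.24 ± 0.18 (adjusted p = 2.09e-07). TNC-AS-2, in the matrix gene tenascin C, was at 0.401 to 2.63 and at most 0.0502 in CP (-1.12), beside -3.87 for TNC and a pair difference of 2.75 ± 0.19. With a pseudocount of 0.1 the pair difference of CCNB2-AS-2 was 3.88 (adjusted p = 3.31e-06), and that of TNC-AS-2 shrank to 1.11 (adjusted p = 0.0233). TNC-AS-2 became a member through the germinal layers alone, so the rule favoured its fall in CP.

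PRSS12-AS-3 and PCSK2-AS-1 were at the other end. PRSS12-AS-3 was at 0.367 to 2.29 in the germinal layers and at most 1.5 in CP, with no call (-0.53, adjusted p = 0.158), while PRSS12, the gene of the protease neurotrypsin, was at 0.617 to 3.6 and 7.31 to 43.7. The pair difference was -3.60 ± 0.46. PCSK2-AS-1 was at 0.371 to 1.48 and then 1.47, 2.96 and 0 in CP, while PCSK2, a prohormone convertase gene, was at 0.466 to 7.43 and 11.1 to 18.8 (pair difference -2.24 ± 0.39).

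In 18 overlapping pairs the locus and partner passed in opposite directions in CP. The pair difference passed in all 18, which adds no support, since passing differences of opposite sign make a larger pair difference. The locus was lower and the partner higher in 12, and the reverse held in 6. Under quantile normalisation the numbers were 9 and 13, and with replicate number as a block 15 and 16. Without CP 2 the total was 10. Of these pairs NECTIN3-AS-2 was named by the size of its pair difference, and those that follow it were named after their values were seen. NECTIN3-AS-2 (chromosome 1, 31823085 to 31831906) lies inside NECTIN3, a cell adhesion gene. It was at 1.1, 3.41 and 3.79 in VZ, 0.425, 0.516 and 1.85 in ISVZ, 0.0616, 0.559 and 0.509 in OSVZ, and at most 3.16e-07 in CP. NECTIN3 was at 5.73 to 6.13 in VZ, 4.1 to 4.47 in ISVZ, 3.09 to 3.37 in OSVZ, and 13.5, 16.8 and 25.9 in CP. Both were lower in OSVZ than in VZ (-1.38 and -0.72). In CP against the germinal layers they moved in opposite directions (-1.05 and 1.83, pair difference -2.88 ± 0.29). NECTIN3-AS-2 became a member through the germinal layers alone, so its CP and pair differences are descriptions with no test. None of its OSVZ libraries reached 1 FPKM, so the rule also favoured its fall from VZ to OSVZ, which is a description too.

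ANK2-AS-11 (chromosome 21, 29883237 to 29884217) lies inside ANK2, which encodes ankyrin-B, an adaptor of the axonal membrane skeleton. It was at 2.08, 1.2 and 1.74 in VZ, 0.747, 0.521 and 1.09 in ISVZ, 1.35, 1.11 and 0.464 in OSVZ, and 0.104, 0.131 and 0.109 in CP. ANK2 was at 18.6 to 22.7 in VZ, 20.5 to 26.4 in ISVZ, 28.3 to 39.5 in OSVZ and 48.4 to 53.8 in CP. CP stood apart from all other libraries for both, at the low end for the locus and the high end for ANK2. The differences were -0.90 ± 0.17 and 0.95 ± 0.11, with a pair difference of -1.85 ± 0.21 and r = -0.82 over 12 libraries. ANK2-AS-11 became a member through the germinal layers alone, so its CP and pair differences are descriptions with no test. Its CP call held in every alternative in which the locus was fitted, which does not lift that limit. The other ANK2 members, ANK2-AS-2 and ANK2-AS-3, did not pass.

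STRBP-AS-2 (chromosome 2, 84146981 to 84147272) is a short locus inside STRBP, the gene of an RNA-binding protein. It was at 9.7 to 19.2 in the germinal layers and 1.12, 3.12 and 8.42 in CP (-1.68 ± 0.35), and STRBP at 29.6 to 37.6 and 45.2 to 49.5 (0.45 ± 0.08). RALA-AS-1, which overlaps the small GTPase gene RALA in part, was at 1.15 to 3.17 and 0.605 to 1.09 (-0.80 ± 0.15), and RALA at 27.6 to 34.8 and 44.7 to 51.2 (0.59 ± 0.08). In both pairs CP and germinal libraries did not overlap on either side.

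The reverse order was seen at PRKD1-AS-1, which overlaps the protein kinase D gene PRKD1 in part. It was at 0.113, 0.19 and 0.457 in VZ, 0.533 to 0.746 in ISVZ, 0.783 to 1.36 in OSVZ, and 1.43, 1.57 and 2.73 in CP, in that order of layers without overlap. PRKD1 was at 5.63 to 11.3 in the germinal layers and 3.33 to 4.99 in CP, and the CP differences were 0.86 ± 0.16 and -0.85 ± 0.18. FGF1-AS-1 spans the growth factor gene FGF1 and also SPRY4, and was at 0.144 to 1.07 in the germinal layers and 2.08 to 3.15 in CP (1.25 ± 0.20). FGF1 was highest in VZ, at 3.88, 5.47 and 1.24, and at 0.0241 to 0.147 in CP (-0.94 ± 0.26).

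**Figure D4:**
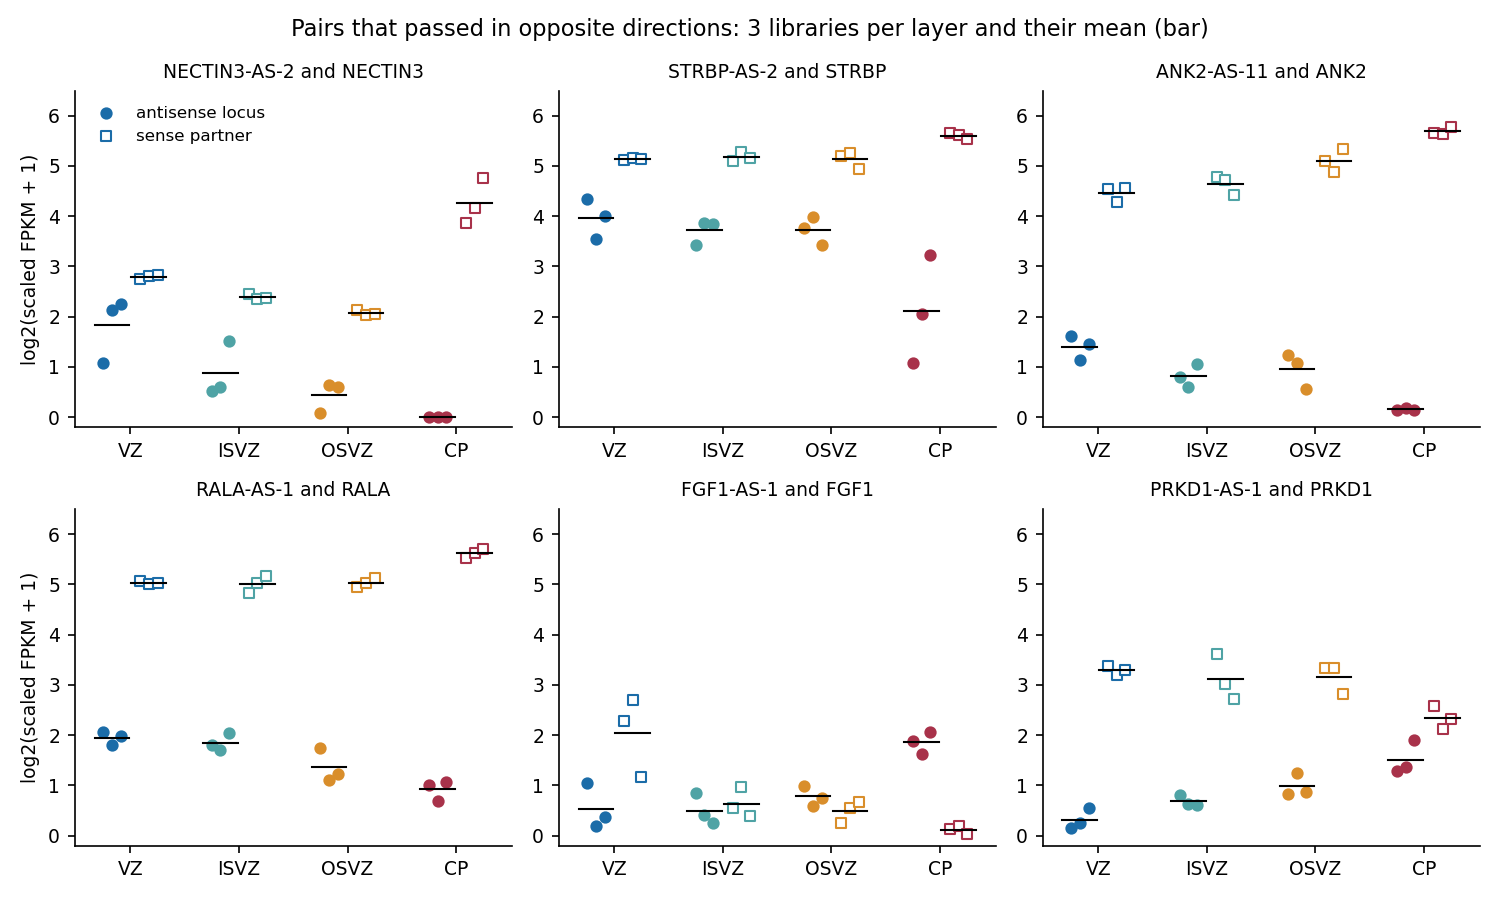
Levels of 6 antisense loci (filled circles) and their sense partners (open squares) as log2(scaled FPKM + 1), 3 libraries per layer with their mean (bar). In CP the locus is low and the partner high for NECTIN3, STRBP, ANK2 and RALA, and the reverse holds for FGF1 and PRKD1.

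Between OSVZ and VZ, locus and partner both rose in 30 overlapping pairs and both fell in 59, and 1 pair was opposite, TWF1-AS-1 at the actin regulator gene TWF1 (0.55 and -0.51). Between CP and OSVZ 47 rose together, 47 fell together and 4 were opposite, ANK2-AS-11, FAM8A1-AS-1, RTN4-AS-1 and STRBP-AS-2. Among these calls of the loci, several were lost when 1 library was left out, TWF1-AS-1 (adjusted p = 0.115 without VZ 2), RTN4-AS-1 (0.169 without CP 2), ANK2-AS-11 (0.0585 without OSVZ 1) and STRBP-AS-2 (0.0533 without OSVZ 2). The first 2 were also lost without any of several other libraries. Under quantile normalisation TWF1-AS-1 (adjusted p = 0.0797), RTN4-AS-1 (0.11), ANK2-AS-11 (0.125) and FAM8A1-AS-1 (0.0543) did not pass.

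Members were also counted by the role of the partner, over lists of 540 genes. At 9 loci whose partner is a cortical progenitor transcription factor, 0 were higher in CP and 8 lower, with a median difference of -1.32 (-0.05 over all genes, of which 28.7% were lower). They were GLI3-AS-2, MEIS2-AS-3 (-1.97), OTX2-AS-1 (-1.42), MEIS2-AS-2 and SIX3-AS-1 (both -1.32), SOX9-AS-1 (-1.12), SALL1-AS-1 (-0.91) and NFIB-AS-2 (-0.80). Of these, GLI3-AS-2, OTX2-AS-1, SIX3-AS-1, SOX9-AS-1 and SALL1-AS-1 became members through the germinal layers alone. SOX9-AS-1 was at 2.86 to 4.98 in VZ and 0.19 to 0.659 in CP, and SOX9, a radial glia factor, differed by -2.54. NFIB-AS-2 was at 24.5 to 34.9 in the germinal layers and 15 to 17.7 in CP. The count of 8 was 5 without CP 1, without CP 2, with no filter on low values, or without both VZ 1 and VZ 2. OTX2-AS-1 (adjusted p = 0.0808 to 0.0954) and SIX3-AS-1 (adjusted p = 0.0669 to 0.0693) did not pass without any 1 of the CP libraries. MEIS2-AS-2 had its CP libraries at 2.92, 7.52 and 32.5 and did not pass in most alternatives (-0.62, adjusted p = 0.309 without CP 1, and 0.15 with no filter). SIX3-AS-1, at a forebrain factor also used by ventral precursors, was at 0.161, 2.98 and 7.21 in ISVZ, beside 44.7, 175 and 155 for DLX1.

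The counts of the other lists are read beside the same shares of all genes in CP, 24% higher and 28.7% lower. At partners of layer-specific neuron factors, 2 of 3 were higher in CP, among them TSHZ3-AS-1 (1.36, a member through CP alone), and at intermediate progenitor factors 1 of 3 was lower, GADD45G-AS-1 (-1.62, a member through the germinal layers alone). At cell cycle genes 3 of 5 were lower, CCNB1-AS-1, CDK6-AS-5 (-2.22), inside the gene of a G1 kinase, and CCNB2-AS-2. CCNB1-AS-1 became a member through the germinal layers alone. At Notch pathway genes neither of 2 passed in CP, and ADAM10-AS-1, at the gene of a Notch-cleaving protease, passed over layers (adjusted p = 0.0495) and was lower in OSVZ than in VZ (-0.54, adjusted p = 0.021).

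At axon guidance and adhesion genes 6 of 12 were higher in CP (24% of all genes) and 1 lower (28.7%), with a median of 0.84 against -0.05 over all genes. They were PCDH17-AS-2 (2.07), UNC5C-AS-3 (1.79), DCC-AS-10 (1.34), PLXNA4-AS-9 (1.06), FLRT2-AS-1 (1.01) and TENM1-AS-1 (0.86), and EPHA5-AS-2 was lower (-0.39). FLRT2-AS-1 did not pass without CP 1 or CP 3 (adjusted p = 0.0549 and 0.0553), nor did EPHA5-AS-2 (adjusted p = 0.127 and 0.0913). DCC-AS-10, inside a netrin receptor gene, was at 1.74 to 6.94 in the germinal layers and 7.63 to 10.3 in CP. The levels of PCDH17-AS-2 were uneven, at 6.33, 7.32 and 27.3 in CP and 9.58 in OSVZ 3, and the protocadherin gene PCDH17 had the same high libraries. NRP1-AS-2, inside a semaphorin and VEGF receptor gene, was highest in OSVZ, at 17.6, 23.9 and 18.5 against 4.19 to 6.68 in VZ, 7.67 to 15.9 in ISVZ and 8.27 to 8.77 in CP (OSVZ minus VZ 1.71 ± 0.24, adjusted p = 6.01e-04).

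At synapse and axon growth genes 3 of 8 were higher, NTRK2-AS-8 (1.98, a member through CP alone), KIF5A-AS-1 (1.16) and MAP2-AS-3. ANK2-AS-11, a member through the germinal layers alone, was lower. NTRK2-AS-8 lies inside NTRK2, the BDNF receptor gene, and was at 3.98, 3.04 and 3.92 in CP and at most 0.542 elsewhere. NTRK2 was highest in VZ, at 28 to 59.6, and at 24 to 34 in CP. The rule favoured CP as the highest layer of the locus, so the contrast with NTRK2 is a description. At matrix and radial glia genes 4 of 8 were lower, SLC1A3-AS-4, ADGRG1-AS-2 (-1.55), TNC-AS-2 and ITGB5-AS-3 (-0.69), the last 2 members through the germinal layers alone, and VLDLR-AS-2, at a reelin receptor gene, was higher (1.39). At chromatin and RNA-binding genes 5 of 14 were lower, HNRNPA1-AS-2, HNRNPA1-AS-3, SMARCD1-AS-1, SRSF1-AS-1 and SRSF2-AS-1, and 0 higher, a share near the 28.7% of all genes. HNRNPA1-AS-2 and SMARCD1-AS-1 became members through the germinal layers alone. HNRNPA1-AS-3 did not pass without CP 3 (adjusted p = 0.0554), and SRSF2-AS-1 did not pass without CP 1 (adjusted p = 0.0759) or CP 2 (adjusted p = 0.139).

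At signalling genes 1 of 3 was higher, SMAD7-AS-2 (0.55, adjusted p = 0.0483, lost in most alternatives, with adjusted p = 0.158 without CP 2), and 1 lower, FZD3-AS-1 (-0.64). DLX5-AS-1 was the only member at an interneuron or glial lineage gene and was lower (-1.08), a call lost without CP 1 (adjusted p = 0.0552). It became a member through the germinal layers alone. Of 8 members at partners with antisense RNAs described in human or mouse, 1 was higher and 2 were lower, OTX2-AS-1 and SIX3-AS-1. No member had a partner among immediate early and stress genes. UBE3A, an imprinted gene with a known antisense transcript, had 3 members, UBE3A-AS-1, UBE3A-AS-2 and UBE3A-AS-3, whose CP differences were -0.09, -0.09 and -0.02, with no call.

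**Figure D5:**
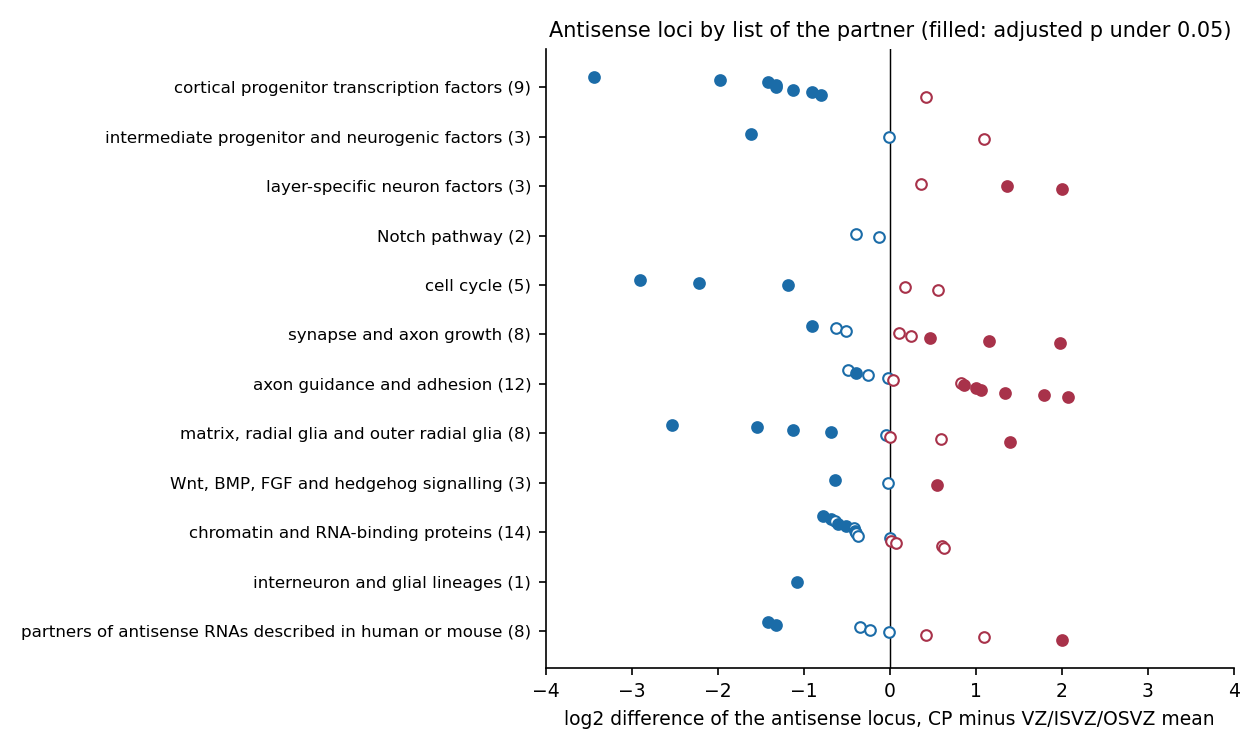
Log2 difference between CP and the germinal layers for the antisense loci whose partner is on each list (number of loci in parentheses), filled where the adjusted p was under 0.05. The 8 filled points of progenitor transcription factors lie below 0, and 6 of the 7 filled points of axon guidance and adhesion lie above 0.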

How the data were processed

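The data were 12 libraries of poly(A) RNA. Per the submitters' processing notes HISAT2 and Cufflinks were used, with versions, genome build, annotation and strand setting not given in the sources used here. Deposited values were FPKM per gene, normalised by the authors, so depth is unknown and no count model was used. Summed FPKM was 244696 to 276661 per library. Entries of 1 identifier were summed, and each library was scaled to the median ratio over 10200 genes. Positions are those of the deposited tables.

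Genes at FPKM of at least 1 in at least 3 libraries (14106) entered limma 3.58.1 (R 4.3.3) as log2(scaled FPKM + 1), with eBayes trend on intensity, 8 degrees of freedom left for error and Benjamini-Hochberg adjustment over all of them. Fold changes on this scale understate the change of low loci. The scripts were tested on simulated data.

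Named loci were, by rule, those of largest difference without overlapping libraries (10 each way for CP against germinal layers, 5 for OSVZ against VZ and CP against OSVZ, 3 for the others), the 10 of highest level, the 5 largest pair differences each way, and up to 4 per list of partners. Some loci that this rule names are not reported here. Members and lists were chosen with earlier results of these data known. Alternatives were another pseudocount, 2 other scalings, 3 filters, a replicate block, no trend and leaving libraries out; leaving out VZ 1 and VZ 2 together was chosen after seeing the data.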

Additional observations from a re-analysis of the deposited data

How the results depend on the processing

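Of 147 differences of named loci, 104 kept their call in every alternative. Over 2952 repeats 220 lost the call and 0 turned direction. The number of members was 1924 at an FPKM of 0.5, 737 at 2, and 468 when all 12 libraries had to reach 1. Requiring 5 FPKM left 404 members to fit, of which 184 passed over layers, 199 in CP against germinal layers, 97 in OSVZ against VZ, 23 in ISVZ against VZ, 15 in OSVZ against ISVZ and 122 in CP against OSVZ; pair differences passed for 84 over layers and 101 in CP, with 98 pairs in the same direction and 4 opposite. With no filter 111, 25, 0 and 131 members passed in OSVZ against VZ, ISVZ against VZ, OSVZ against ISVZ (131 at an unadjusted p under 0.05) and CP against OSVZ. A mean FPKM of 1 as filter gave 11 opposite pairs. A pseudocount of 0.1 gave pair differences for 176 over layers and 209 in CP, and 2 members in OSVZ against ISVZ, where quantile normalisation gave 17 and no trend gave 8. Quantile normalisation also moved the split of higher and lower to 17 and 37 in ISVZ against VZ, 10 and 7 in OSVZ against ISVZ, 133 and 83 in pairs of the same direction, and 13 and 9 in opposite pairs. The cause was not tested.

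The numbers 1, 2 and 3 recur in each layer. Deviations of same-numbered libraries had r of 0.064 to 0.426, with 16 of 18 pairs over 0.1 and 12 of 12 libraries closest to their own number, a hint from the data and not from the design. With the replicate block 484 members passed over layers, 519 in CP against germinal layers, 78 in ISVZ against VZ and 19 in OSVZ against ISVZ, and 31 pairs were opposite, 15 with the locus lower and 16 with it higher. Of the named differences, TWF1-AS-1 in OSVZ against VZ (adjusted p = 0.0554), CHSY3-AS-1 in OSVZ against ISVZ (0.0512) and SMAD7-AS-2 in CP (0.0671) did not pass with the block.

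Leaving out 1 library at a time gave 343 to 408 over layers, 351 to 462 in CP against germinal layers, 121 to 194 in OSVZ against VZ, 19 to 59 in ISVZ against VZ, 0 to 30 in OSVZ against ISVZ and 157 to 228 in CP against OSVZ. Pair differences passed for 229 to 296 over layers and 217 to 307 in CP, with 172 to 234 pairs in the same direction and 10 to 20 opposite. The OSVZ against ISVZ count of 0 without ISVZ 2, ISVZ 3, OSVZ 1 and OSVZ 3 stood beside 127, 101, 136 and 104 members at an unadjusted p under 0.05. Without VZ 1 and VZ 2 the counts were 58 in OSVZ against VZ, 6 in ISVZ against VZ and 1 in OSVZ against ISVZ. With FPKM alone, the depth behind a value near 1 is unknown.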
